A study of Mus musculus with 12 samples.

Results

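A set of 56 genes was expressed selectively in mouse leukemia carrying the BRD9-NUTM1 fusion (BN1), out of 35976 gene symbols counted. A gene belonged to the set when its mean level in BN1 was at least 3 CPM (counts divided by the library's total count and scaled to a common size) and at least 8 times its mean in each of the other groups. Hox genes, Tdrd9 and Marco, which also met these limits, were left out, so that 56 of 64 genes remained. The measurement was polyadenylated RNA from sorted CD45.2+ bone marrow cells of C57BL/6 mice, in 4 groups of 3 libraries. BN1 cells carried BRD9-NUTM1, MA9 cells carried MLL-AF9, ME cells carried MLL-ENL, and WT cells had the CD45.2(+) genotype without a fusion. No treatment was given to any group, and the labels give neither the age of the mice nor how the fusions were delivered. Whether the 3 libraries of a group stem from different animals is not in the labels, and the p-values therefore cover the spread among these libraries alone, which may be technical. In bulk samples, fewer cells of a type and less RNA per cell cannot be told apart.

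BRD9 is a bromodomain subunit of one form of the SWI/SNF remodelling complex, and NUTM1 is a protein of male germ cells that binds the histone acetyltransferase p300. Fusions of NUTM1 are best known from human NUT carcinoma, where hyperacetylated chromatin forms long stretches over active genes. MLL-AF9 and MLL-ENL act through other cofactors, those of transcription elongation, and are best known for keeping Hox genes active. The set held genes of neurons and secretory vesicles, receptors, secreted and matrix proteins, testis and cilium genes and long non-coding RNAs, which are not textbook genes of myeloid cells, beside some, such as Saa3 and Clec4b2, that are.

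Library totals ran from 18292636 to 25732049 counts. Ptprc, the gene of CD45, was present in all libraries, at 480.6 to 519 CPM in BN1, 377 to 435 CPM in MA9, 322 to 329 CPM in ME and 873 to 1019 CPM in WT. LOC101056014 and Lars2 together took 1.8% of the counts in ME replicate 3, against 0.0463% to 0.0755% in the other libraries. None of the 56 genes was in any of the 14 marker lists of other cell types that were examined. Marker levels for stroma summed to 4.22 to 7.50 CPM in BN1, 24.8 to 25.1 CPM in MA9, 3.61 to 4.06 CPM in ME and 12.5 to 13.3 CPM in WT. Of 16 neuronal markers, 15 were under 1 CPM in BN1 and 10 had no count there, among them Map2, Snap25, Syt1 and Dcx. Of 12 epithelial markers, 11 were under 1 CPM in BN1 and 9 had no count. Macrophage markers, in contrast, summed to 929 to 968 CPM in BN1, 453 to 462 CPM in MA9, 394 to 422 CPM in ME and 509 to 529 CPM in WT, with Csf1r at 581 CPM and Cd68 at 178 CPM in BN1. The list did not move as one. Adgre1 was at 64.1 CPM in BN1 and 109 CPM in MA9, Vcam1 at 51.95 CPM in BN1, 94.9 CPM in MA9 and 71.0 CPM in ME, and Mertk at 0.43 CPM in BN1 and 11.9 CPM in ME. C1qa, C1qb and C1qc were each under 1 CPM in BN1, MA9 and ME, and Timd4 had no count in BN1 or ME. Cd163 was at 37.5 CPM in BN1, 7.37 CPM in MA9, 6.46 CPM in ME and 13.7 CPM in WT. In the same order, Siglec1 was at 25.2, 1.73, 1.18 and 16.9 CPM, and Mrc1 at 10.1, 0.56, 1.43 and 15.9 CPM. Neutrophil markers summed to 25610 to 26080 CPM in BN1, 11820 to 12360 CPM in MA9, 17060 to 17160 CPM in ME and 50740 to 54130 CPM in WT. Ltf, a granule protein of neutrophils, had 1145 CPM in BN1, 7.30 CPM in MA9, 0.64 CPM in ME and 8490 CPM in WT. This list did not move as one either. Elane, Mpo, Prtn3 and Ctsg were higher in BN1 than in WT, as for Mpo (12230 against 897 CPM), and the other neutrophil markers were lower. Prtn3 alone was lower in BN1 (1809 CPM) than in MA9 (2495 CPM) and ME (3166 CPM). Osteoclast markers summed to 97.9 to 104.7 CPM in BN1, 35.8 to 40.6 CPM in MA9 and 28.7 to 32.4 CPM in ME. In BN1 this was mostly Mmp9 (98.96 CPM), and 6 of the 8 markers were under 1 CPM. Acp5 was lower in BN1 (1.35 CPM) than in MA9 (22.8 CPM) and ME (27.2 CPM). T and NK cell markers summed to 144 to 149.5 CPM in BN1, 24.4 to 28.4 CPM in MA9 and 7.47 to 9.57 CPM in ME. In BN1 this was mostly Nkg7 (145.9 CPM), and 11 of the 12 markers were under 1 CPM. For every list apart from macrophages, every BN1 sum lay below every WT sum. The part of myeloid cell states in the levels of the 56 genes was not tested.

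Promoter sequences were available for 41 of the 56 genes, as the 250 bases before to 50 bases after a RefSeq start in GRCm38.p6. The 5 below are shown as examples of high, intermediate and low CpG content. Capitals mark CpG dinucleotides. Tmem178 and Scamp5 had the densest of the 5, with 37 and 32 CpGs and observed-over-expected ratios of 1.02 and 0.98. Brdt, with 23 CpGs and a ratio of 0.74, also holds CACGTG and TGANTCA. Slitrk2 and Gpr119 had 8 and 4 CpGs and ratios of 0.30 and 0.24.
Tmem178 (chr17:80944382-80944681, plus strand): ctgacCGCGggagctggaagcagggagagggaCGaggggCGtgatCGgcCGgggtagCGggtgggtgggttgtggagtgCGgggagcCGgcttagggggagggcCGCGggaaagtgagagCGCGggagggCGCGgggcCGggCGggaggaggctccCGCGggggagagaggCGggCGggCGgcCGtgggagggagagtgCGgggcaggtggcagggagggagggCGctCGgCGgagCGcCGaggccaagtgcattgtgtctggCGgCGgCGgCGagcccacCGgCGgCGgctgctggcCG
Scamp5 (chr9:57468011-57468310, minus strand): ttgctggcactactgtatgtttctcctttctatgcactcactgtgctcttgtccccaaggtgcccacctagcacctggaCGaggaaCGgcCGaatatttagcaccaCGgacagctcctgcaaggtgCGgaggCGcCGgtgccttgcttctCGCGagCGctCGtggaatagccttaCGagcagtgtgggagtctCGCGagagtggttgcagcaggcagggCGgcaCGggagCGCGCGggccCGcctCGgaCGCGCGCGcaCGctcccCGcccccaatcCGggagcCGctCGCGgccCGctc
Brdt (chr5:107330944-107331243, plus strand): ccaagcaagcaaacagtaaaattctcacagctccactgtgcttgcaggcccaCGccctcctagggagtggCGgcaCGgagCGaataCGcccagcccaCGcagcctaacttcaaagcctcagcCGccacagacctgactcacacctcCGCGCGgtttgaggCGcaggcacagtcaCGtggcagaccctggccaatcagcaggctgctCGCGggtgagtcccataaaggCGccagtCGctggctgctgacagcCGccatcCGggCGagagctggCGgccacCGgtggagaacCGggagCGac
Slitrk2 (chrX:66649068-66649367, plus strand): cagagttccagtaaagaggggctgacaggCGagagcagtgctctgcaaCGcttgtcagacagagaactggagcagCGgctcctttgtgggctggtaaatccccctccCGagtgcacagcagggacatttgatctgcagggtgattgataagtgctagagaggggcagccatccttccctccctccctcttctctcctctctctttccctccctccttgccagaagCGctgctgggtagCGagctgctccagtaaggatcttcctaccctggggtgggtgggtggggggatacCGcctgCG
Gpr119 (chrX:48674429-48674728, minus strand): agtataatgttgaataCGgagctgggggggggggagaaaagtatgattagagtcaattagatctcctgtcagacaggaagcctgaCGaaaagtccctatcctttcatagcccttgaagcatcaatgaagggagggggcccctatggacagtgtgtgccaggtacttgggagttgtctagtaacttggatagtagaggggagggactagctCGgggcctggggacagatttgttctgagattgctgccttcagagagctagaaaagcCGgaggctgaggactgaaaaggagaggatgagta

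The promoters of the set were of mixed kind. A promoter was called CpG-rich at a CpG observed-over-expected ratio of at least 0.6 with at least 55% G and C, and CpG-poor at a ratio under 0.3. Of 41 promoters, 13 (31.7%) were CpG-rich, against 6538 of 11789 (55.5%) among the genes that passed the filter on low counts and 8154 of 25671 (31.8%) among all RefSeq promoters. CpG-poor promoters numbered 12 (29.3%), against 16.2% of the tested genes and 40.7% of all promoters. The median ratio was 0.51 in the set, 0.73 over the tested genes and 0.40 over all promoters. CpG-rich members included Tmem178, Scamp5, Ctsf, Tanc2, Prickle2 and Zkscan2, and CpG-poor ones Dmkn, Clec4b2, Col6a4, Gpr55, Fabp7 and Gpr119. Of the 41 windows, 33 lay within 1 kb of the annotated gene start and 8 lay farther off, up to 30.5 kb. Among the 8 were those of Gpr55, Plekhg4, Zkscan2 and C1qtnf6, at 30528, 5587, 4451 and 2519 bases.

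**Figure D1:**
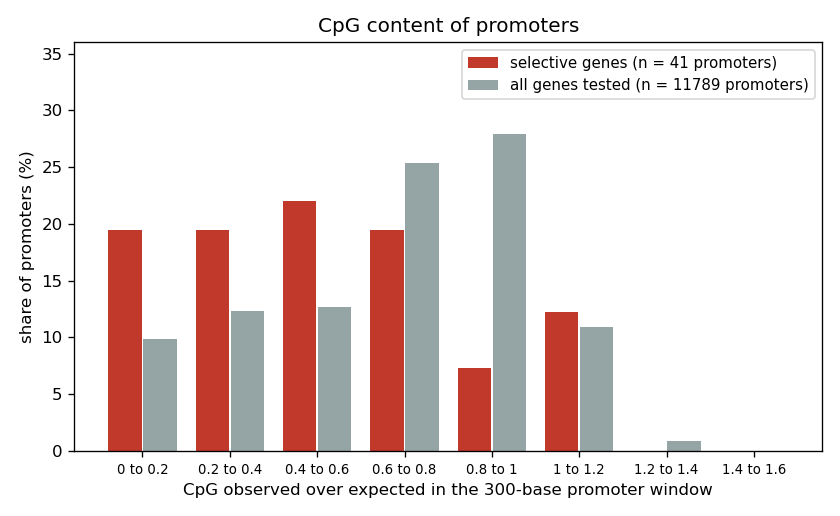
Distribution of the CpG observed-over-expected ratio (x axis, in bins) in promoter windows, as the share of promoters in percent (y axis). Red bars are the 41 promoters of the selective genes and grey bars the 11789 promoters of all tested genes. The median was 0.51 in the set against 0.73 over tested genes.

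Short motifs were searched on both strands of the same windows. TGANTCA, the letters bound by AP-1 type factors, was in 7 promoters (17.1%), against 5.5% of the tested genes and 7.88% of all promoters. The 7 were those of Dmkn, C1qtnf6, Cct6b, Stfa3, Brdt, Ankef1 and Gm34360. GAGGAAGT was in 3 promoters (7.32%), those of Gpr55, Plekhg4 and Vash1, against 3.38% of tested genes. The windows of C1qtnf6, Gpr55 and Plekhg4 are among those more than 1 kb from the annotated gene start. CACGTG was in 4 (9.76%) against 9.83% of tested genes, AGATAA in 3 (7.32%) against 7.03%, TTGCNNAA in 3 (7.32%) against 8.93% and TGTGGT in 4 (9.76%) against 13.6%. TAATTA was in 0 of 41 promoters, against 2.58% of tested genes. A match is a description of letters in this window and not a site of binding.

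Summed over the 56 genes, levels reached 2369.9 to 2403 CPM in the BN1 libraries, 89.6 to 98.4 CPM in MA9, 87.0 to 88.0 CPM in ME and 40.5 to 44.0 CPM in WT. The sum was led by a few genes, and without the 4 genes above 100 CPM it was 1183 to 1194 CPM in BN1, 37.1 to 39.7 CPM in MA9, 39.7 to 40.2 CPM in ME and 37.2 to 40.4 CPM in WT. These levels chose the genes and are therefore given as a description. In BN1, 4 genes stood above 100 CPM, 30 between 10 and 100 CPM and 22 below 10 CPM. The coefficient of variation over the 3 BN1 libraries was 7.07% at the median, from 0.261% for Rgs8 to 29.8% for A830012C17Rik. For all 56 genes the lowest BN1 library stood above the highest of the 9 other libraries, which the choice of genes largely fixes (16.3% of 15334 tested genes did so), and for 42 it was at least 8 times as high. The highest of the other groups was MA9 for 18 genes, ME for 20 and WT for 18. No count was seen for 3 genes in MA9, 4 in ME and 5 in WT. The same limits applied to the other groups selected 46 genes for MA9, 17 for ME and 663 for WT. Of the 56 genes, 45 are annotated as protein-coding and 10 as long non-coding, and Gm31682 has no RefSeq position. The 55 placed genes lie on 20 chromosomes, 9 of them on chromosome 7, and positions are those of RefSeq in GRCm38.p6.

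**Figure D2:**
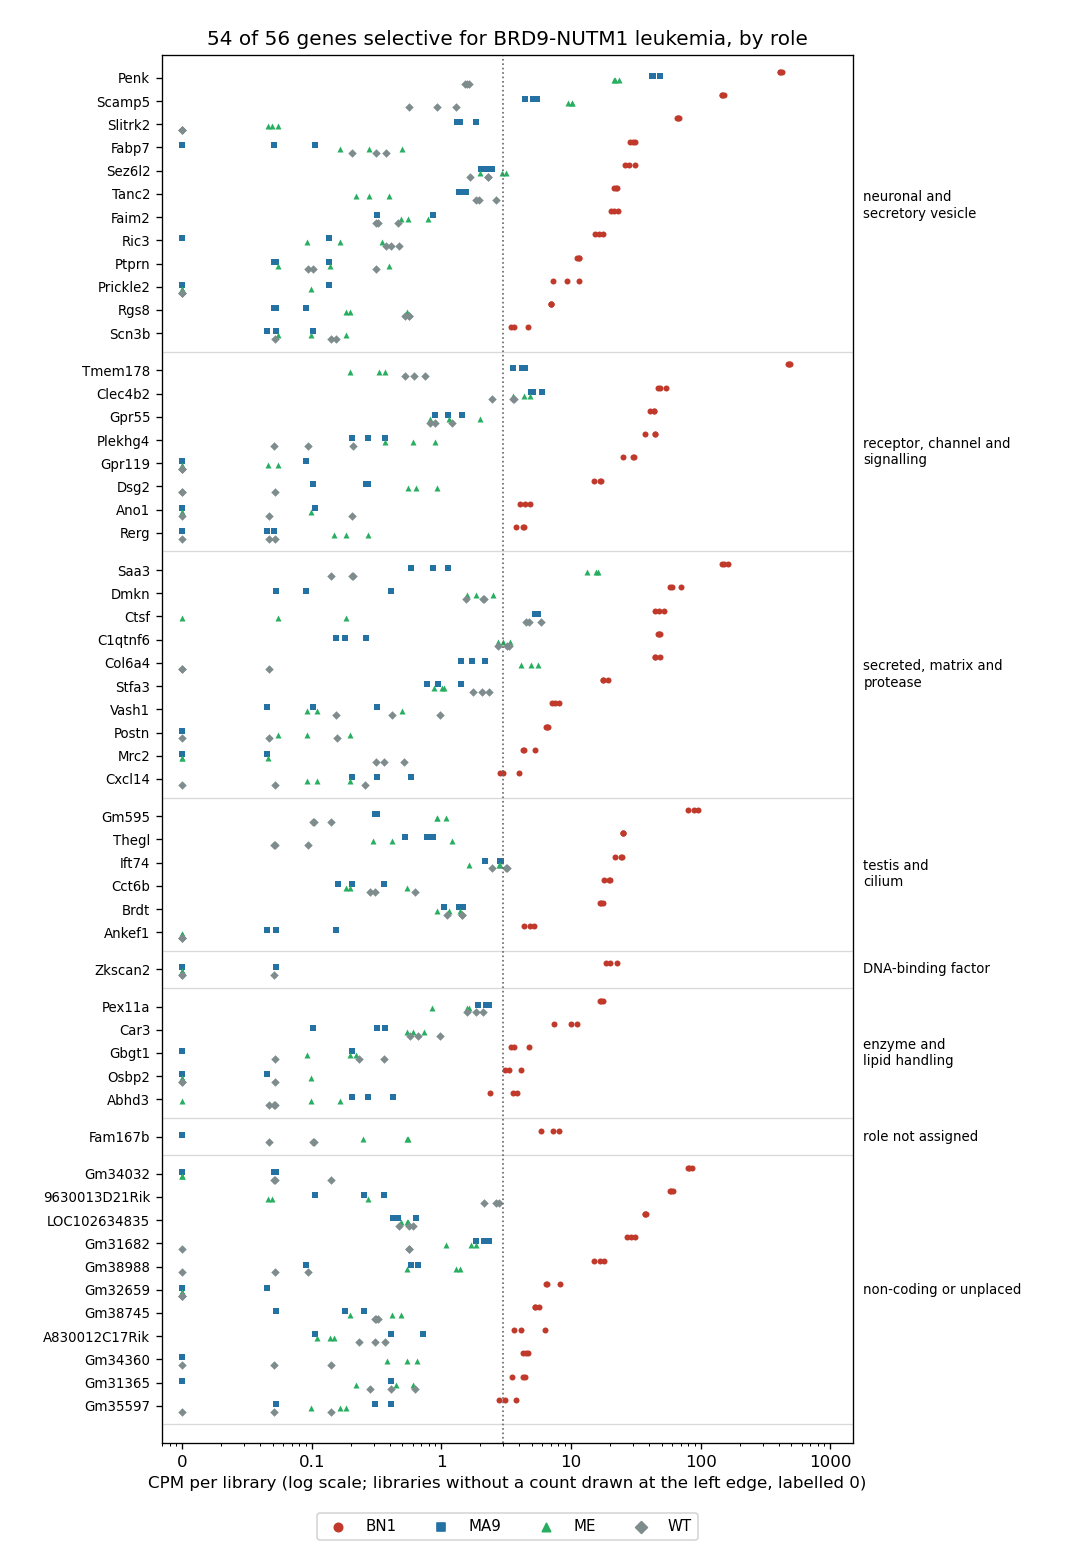
Level of 54 of the 56 genes in each library, in CPM on a log axis, with genes (rows) grouped by role and ordered by BN1 level. Each point is 1 library of BN1 (red circles), MA9 (blue squares), ME (green triangles) or WT (grey diamonds), points at the left edge are libraries without a count, and the dotted line marks 3 CPM. In every row the lowest BN1 library lies above all 9 other libraries.

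Genes of neurons and of the secretory vesicle system made up 13 of the 56. Their mean levels in BN1 ran from 3.90 to 414 CPM, with a median of 22.2 CPM. Penk (chromosome 4, 4133536 to 4138815), which encodes the precursor of the enkephalin opioid peptides, had 409, 411 and 420.4 CPM in BN1, 42.8, 42.1 and 48.9 CPM in MA9, 22.0, 21.5 and 23.5 CPM in ME, and 1.63, 1.51 and 1.59 CPM in WT. The groups did not overlap and stood in the order BN1, MA9, ME and WT. Its BN1 level was 9.27 times that of MA9 and 262 times that of WT, so Penk was selective against WT far more than against MA9.

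Scamp5 (chromosome 9, 57441327 to 57468060), a membrane protein of secretory vesicles, had 150.2, 147 and 146 CPM in BN1, 5.49, 4.39 and 5.10 CPM in MA9, 10.2, 9.45 and 10.2 CPM in ME, and 0.56, 1.30 and 0.92 CPM in WT. ME held the higher of the MLL fusion levels here, and BN1 was 14.9 times as high as ME. Slitrk2 (chromosome X, 66648951 to 66661402), a leucine-rich membrane protein that organises synapses, had 66.5, 67.8 and 65.9 CPM in BN1 and 1.85, 1.40 and 1.33 CPM in MA9. It had 1 count in each ME library and none in WT. Its BN1 level was 43.8 times that of MA9 and at least 1338 times that of WT, taking 3 counts over the 3 WT libraries as the floor. The ratio to ME was 1338, with a counting interval of 458 to 6493, and such intervals and floors cover counting error only.

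Fabp7, a fatty acid binding protein of brain glia and neural progenitors, had 30.3, 31.3 and 28.7 CPM in BN1 and at most 0.49 CPM in any other library. Prickle2, a planar cell polarity protein of the postsynapse, was more variable, with 11.6, 7.20 and 9.25 CPM in BN1, 3 counts over the MA9 libraries, 2 over the ME libraries and none in WT. Its ratio to MA9 was 190.2 (counting interval 64.8 to 924). Further members of this role were Sez6l2, a membrane protein of neurons, Tanc2, a scaffold of the postsynapse, Faim2, an inhibitor of Fas-induced death, Ric3, a chaperone of acetylcholine receptors, Ptprn, a membrane protein of dense-core vesicles, Rgs8, a regulator of G protein signalling, and Scn3b, a sodium channel subunit. They stood between 3.90 and 28.4 CPM in BN1.

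Receptor, channel and signalling genes numbered 8, with a median BN1 level of 35.4 CPM. Tmem178 (chromosome 17, 80944632 to 81001816), a membrane protein of the endoplasmic reticulum that acts in calcium signalling of osteoclasts, had 476, 469.7 and 492 CPM in BN1, 3.59, 4.16 and 4.38 CPM in MA9, 0.20, 0.37 and 0.33 CPM in ME, and 0.75, 0.52 and 0.61 CPM in WT. BN1 was 118 times as high as MA9, 1606 times as high as ME and 764 times as high as WT. Per kilobase of exon, Tmem178 reached 282 CPM per kb and Penk 253 CPM per kb in BN1. Among the 48 genes with an exon length the next was Saa3, at 58.7 CPM per kb. The length merges all annotated exons of a gene (2606 bases for Saa3), so levels per kb of a shorter transcript would be higher.

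Gpr55 and Gpr119 are receptors for lipid messengers. Gpr55 had 40.4, 43.7 and 43.4 CPM in BN1, 0.90, 1.45 and 1.12 CPM in MA9, 1.14, 1.98 and 0.82 CPM in ME, and 1.21, 0.89 and 0.82 CPM in WT. The 3 other groups overlapped, and BN1 was 32.4 times as high as ME. Gpr119 had 30.3, 30.7 and 25.3 CPM in BN1, 2 counts over the MA9 libraries, 2 over the ME libraries and none in WT. Its ratio to MA9 was 869 (counting interval 240.2 to 7179), and it was at least 577 times as high as in WT. Clec4b2, a lectin receptor of myeloid cells, lay close to the limit of the set, with 49.8 ± 4.07 CPM in BN1, 5.31 ± 0.58 CPM in MA9, 4.24 ± 0.66 CPM in ME and 3.22 ± 0.66 CPM in WT (SD, n = 3 each). The others were Plekhg4, a guanine nucleotide exchange factor, Dsg2, a desmosomal cadherin, Ano1, a calcium-activated chloride channel, and Rerg, a small GTPase, at 4.12 to 42.0 CPM in BN1.

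Secreted, matrix and protease genes numbered 10. Saa3 (chromosome 7, 46711998 to 46719615), an acute-phase serum amyloid that macrophages make, had 145, 152 and 162 CPM in BN1, 0.58, 0.86 and 1.12 CPM in MA9, 15.5, 16.2 and 13.3 CPM in ME, and 0.14, 0.21 and 0.20 CPM in WT. ME stood between BN1 and the other groups, and BN1 was 10.2 times as high as ME. Col6a4 (chromosome 9, 105990318 to 106096828), a chain of collagen VI, had 44.2, 44.2 and 48.2 CPM in BN1, 2.16, 1.72 and 1.43 CPM in MA9 and 5.54, 4.93 and 4.10 CPM in ME, with 1 count over the WT libraries. Ctsf, a lysosomal cysteine protease, had 44.0, 47.4 and 51.8 CPM in BN1, 5.28, 5.43 and 5.56 CPM in MA9, 0, 0.18 and 0.05 CPM in ME, and 4.53, 5.84 and 4.76 CPM in WT. It was thus near its limit against MA9 and WT (8.81 and 9.47 times) and far from it against ME (599 times, over 5 counts).

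Dmkn, a secreted protein of the epidermis, had 62.8 ± 6.26 CPM in BN1, 0.18 ± 0.20 CPM in MA9, 1.98 ± 0.47 CPM in ME and 1.92 ± 0.34 CPM in WT. C1qtnf6, a secreted protein of the C1q and TNF related family, had 47.6 ± 0.80 CPM in BN1, 0.20 ± 0.06 CPM in MA9, 3.03 ± 0.32 CPM in ME and 3.07 ± 0.32 CPM in WT. For both, MA9 held the lowest level. Stfa3, a cytosolic inhibitor of cysteine proteases, had 18.2 ± 0.92 CPM in BN1, 1.05 ± 0.34 CPM in MA9, 0.98 ± 0.09 CPM in ME and 2.05 ± 0.31 CPM in WT. Stfa3 belongs to a cluster of closely similar genes, so its count may share reads with its copies, and Saa3 and Clec4b2 have related copies too. Vash1, an inhibitor of vessel growth, Postn, a matrix protein, Mrc2, a collagen receptor, and Cxcl14, a chemokine, completed this role at 3.27 to 7.59 CPM in BN1.

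Testis and cilium genes numbered 6. Gm595 (chromosome X, 48841458 to 48877815), which RefSeq names Fsip2l after a protein of the sperm fibrous sheath, had 88.3, 95.5 and 80.1 CPM in BN1, 0.32, 0.32 and 0.31 CPM in MA9, 1.09, 0.92 and 0.93 CPM in ME, and 0.14, 0.10 and 0.10 CPM in WT. Its groups did not overlap, and BN1 was 89.8 times as high as ME. Brdt, a bromodomain protein of male germ cells, had 17.1, 17.7 and 16.6 CPM in BN1, 1.37, 1.04 and 1.48 CPM in MA9, 1.38, 1.15 and 0.93 CPM in ME, and 1.45, 1.10 and 1.43 CPM in WT. Thegl and Cct6b, genes of male germ cells, and Ift74, a subunit of the transport machinery of cilia, lay between 19.2 and 25.1 CPM in BN1. Ankef1 had 4.79 ± 0.42 CPM in BN1, 5 counts over the MA9 libraries and none in ME or WT.

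Zkscan2, a zinc finger protein that binds DNA, had 22.6, 20.1 and 18.7 CPM in BN1, 1 count over the MA9 libraries, none in ME and 1 count over the WT libraries. It was at least 411 times as high as in ME, and the ratio to WT was 1230.0 (counting interval 221 to 48620). Enzymes and lipid-handling proteins numbered 5 (Car3, Pex11a, Gbgt1, Osbp2 and Abhd3), at 3.24 to 17.1 CPM in BN1, and Fam167b, of no assigned role, had 7.05 ± 1.14 CPM in BN1.

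Of the non-coding or unplaced genes, Gm34032 (chromosome 16, 31476082 to 31578483) had the largest ratio to the highest other group in the set, when 3 counts are taken as the floor of a group. It had 79.1, 85.4 and 81.4 CPM in BN1, 2 counts over the MA9 libraries, none in ME and 0.14, 0.05 and 0.05 CPM in WT. BN1 was 1011 times as high as WT, and the ratio to MA9 was 2483 (counting interval 687 to 20510). 9630013D21Rik had 59.5 ± 1.94 CPM in BN1, 0.24 ± 0.13 CPM in MA9, 0.12 ± 0.13 CPM in ME and 2.52 ± 0.33 CPM in WT. Gm32659 had 7.07 ± 0.98 CPM in BN1, 1 count over the MA9 libraries and none in ME or WT.

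The limits of the set cut through a continuum. Just inside the 8-fold limit lay Pex11a, a peroxisomal membrane protein (8.01 times the highest other group), Ift74 (8.02), Gm34360 (8.53) and Ctsf (8.81). Just outside lay Dnah2, a dynein of cilia (7.79), Spats2 (7.30), Kcnab3, a potassium channel subunit (6.92), and Gm31058 (6.64). At the 3 CPM limit, Gm35597 (3.22 CPM), Abhd3 (3.24), Cxcl14 (3.27) and Osbp2 (3.52) lay just inside. Asphd1 (2.99 CPM), 2410003L11Rik (2.78), Gm40597 (2.68) and Gm40357 (2.57) lay just outside.

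The choice of genes capped the MA9, ME and WT levels against BN1 but did not use the differences among these 3 groups, which were tested gene by gene, MA9 against ME first. All 56 genes passed the filter on low counts, many only through their BN1 libraries, so the shares called are given beside the background and nothing is read from the difference. The test was edgeR's quasi-likelihood test over 15334 genes with Benjamini-Hochberg adjustment, called at an adjusted p under 0.05. It called 23 of 56 genes (41.1%), 7 higher and 16 lower in MA9. Of all tested genes, 40.6% were called, 20.2% higher and 20.4% lower. The share with no overlap of the libraries was 25 of 56 (44.6%), against 49.6% of all tested genes. At least 10 counts over both groups were seen for 46 of the 56 genes. The median log2 fold change was -0.18 for the set, also with the genes that have no count in a group at their bound, and 0 over all genes. Of the 23 calls, 15 held in every alternative that gave a value.

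Higher in MA9 than in ME were Ctsf (log2 fold change 5.87 ± 0.33, approximate SE, adjusted p = 1.2e-14 in edgeR), Slitrk2 (4.71 ± 0.41, 4.8e-10) and Tmem178 (3.68 ± 0.21, 1.8e-14). For Tmem178 all 3 MA9 libraries lay above all ME and WT libraries. Tanc2 (2.20 ± 0.31), Penk (0.94 ± 0.06) and Pex11a (0.60 ± 0.23, edgeR adjusted p = 0.036) were also called higher. Of the 5 Ctsf counts in ME most came from replicate 2, and without it the log2 fold change was 7.34. Ankef1 was called on 5 counts in MA9 against none in ME (edgeR adjusted p = 0.049), a level at least 1.65-fold higher, and this call was lost with DESeq2, with no filter, with the replicate block, and without any 1 BN1 or ME library or MA9 replicate 1 or 3. Ankef1 passed the filter on low counts through BN1, so its call rests on few counts. The call of Pex11a was lost with DESeq2 and without any of MA9 replicate 1, MA9 replicate 3 or ME replicate 1.

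Lower in MA9 than in ME were Saa3 (-4.18 ± 0.15, edgeR adjusted p = 4.3e-19), C1qtnf6 (-3.96 ± 0.27, 6.5e-13) and Dmkn (-3.47 ± 0.39, 3.4e-08). C1qtnf6 had 12 counts over the MA9 libraries against 183 over the ME libraries, and Dmkn 11 against 120. Without MA9 replicate 3 the log2 fold change of Dmkn was -4.71. Col6a4 (-1.52 ± 0.17), Gm595 (-1.68 ± 0.31) and Scamp5 (-1.06 ± 0.11) also fell, at counts of 107 against 294, 19 against 59 and 301 against 597. Fam167b had no count in MA9 and 27 in ME, at least 9.07-fold lower. Postn had no count in MA9 and 7 in ME, at least 2.35-fold lower, and its call was lost without ME replicate 1. Fam167b and Postn passed the filter on low counts through BN1, and their calls rest on few counts.

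**Figure D3:**
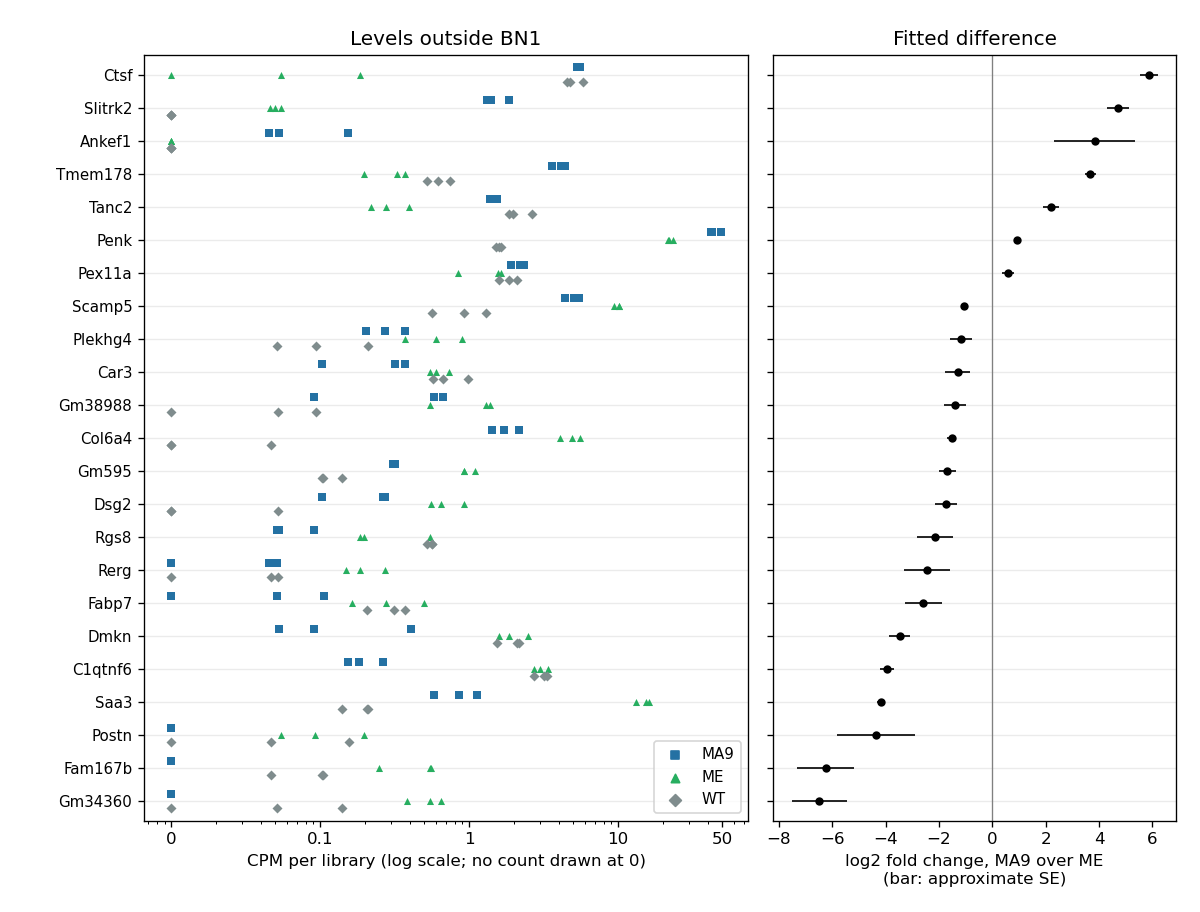
The 23 selective genes called between MA9 and ME by edgeR. The left panel shows CPM per library on a log axis for MA9 (squares), ME (triangles) and WT (diamonds), with libraries without a count at 0, and the right panel the fitted log2 fold change of MA9 over ME with its approximate SE. Genes run from Ctsf (5.87) to Gm34360 (-6.49), and fits with no count in a group are not bounds.

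In MA9 against WT the edgeR test called 30 of 56 (53.6%), 15 higher and 15 lower in MA9, against 80.1% of all tested genes (39.3% higher and 40.8% lower), and 26 (46.4%) showed no overlap of libraries against 82.2% of all. At least 10 counts over both groups were seen for 44 of the 56. The median log2 fold change was -0.11 in the set, also with bounds, and -0.01 over all genes. Slitrk2 was called higher, with 92 counts in MA9 against none in WT (at least 30.4-fold higher). Also called higher were Col6a4 (6.15 ± 0.54, edgeR adjusted p = 3.4e-11) and Penk (4.64 ± 0.10, 6.2e-25). Thegl (3.17 ± 0.62, 44 counts in MA9 against 4 in WT) and Dsg2 (3.14 ± 0.96, 13 against 1) were called higher on fewer counts. Called lower were Mrc2 (-4.33 ± 0.84, 1 count against 24), C1qtnf6 (-4.09 ± 0.26), Dmkn (-3.53 ± 0.39) and 9630013D21Rik (-3.49 ± 0.30). Calls on 5 or fewer counts against none were also made, with bounds close to no change, for Ankef1 (at least 1.65-fold higher), Fam167b (at least 1.68-fold lower) and Postn (at least 1.34-fold lower). Mrc2, Ankef1, Fam167b and Postn passed the filter on low counts through BN1, and these calls rest on few counts. Single libraries moved some of these values, to 8.16 for Col6a4 without WT replicate 1, 5.17 for Dsg2 without WT replicate 2, -6.18 for Mrc2 without MA9 replicate 2 and -4.77 for Dmkn without MA9 replicate 3. The Ankef1 call was lost with DESeq2 and without MA9 replicate 3 or any 1 WT library, and the Postn call without any 1 MA9 library or WT replicate 2. In all, 22 of the 30 calls held in every alternative that gave a value.

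ME against WT gave 24 calls of 56 (42.9%), 14 higher and 10 lower in ME, against 79.2% of all tested genes (39% higher and 40.2% lower), and 26 (46.4%) with no overlap against 80.4% of all. The median log2 fold change was 0.12 in the set (0 with bounds) and -0.01 over all genes. Col6a4 (7.67 ± 0.41, edgeR adjusted p = 7.9e-16, 294 counts in ME against 1 in WT) and Saa3 (6.20 ± 0.20, 9.1e-21) were called higher than WT. So were Penk (3.70 ± 0.11, edgeR adjusted p = 1e-21) and Scamp5 (3.32 ± 0.16, 1.1e-16). Dsg2 (4.88 ± 0.72, 42 counts in ME against 1 in WT) and Thegl (3.0 ± 0.65, 37 against 4) were called higher on fewer counts. Called lower were Ctsf (-5.94 ± 0.33, edgeR adjusted p = 1.4e-15, 5 counts in ME against 302 in WT), 9630013D21Rik (-4.49 ± 0.36) and Tanc2 (-2.94 ± 0.28). Fewer counts carried the lower calls of Mrc2 (-4.28 ± 0.85, 1 against 24) and Tmem178 (-1.18 ± 0.33, edgeR adjusted p = 0.0038, 18 against 38). Gm34032 was called lower on no count against 5 (at least 1.67-fold lower). Mrc2 and Gm34032 passed the filter on low counts through BN1, and their calls rest on few counts. Single libraries moved some of these values too. Without WT replicate 1 Col6a4 was at 9.68, and without WT replicate 2 Dsg2 was at 6.90. Without ME replicate 2 Ctsf was at -7.41 and Mrc2 at -6.19, and without ME replicate 3 9630013D21Rik was at -5.69 and Thegl at 2.21. Tmem178 was therefore called higher than WT in MA9 and lower than WT in ME. The Gm34032 call was lost without WT replicate 1, and 18 of the 24 calls held in every alternative that gave a value. These comparisons share the MA9, ME or WT libraries.

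The genes around the 56 were examined next, since they were not chosen by their own levels. Of 148 tested genes with a start within 100 kb of a member's start, 41 (27.7%) were higher in BN1 than in each of MA9, ME and WT by the edgeR test, against 14.2% of 15278 tested genes outside the set. Lower in all 3 comparisons were 13 (8.78%), against 13.3%. The share was highest close by. Under 25 kb, 15 of 34 neighbours (44.1%) were higher and 2 (5.88%) lower. These 15 lay beside 11 of the 21 members with a tested neighbour in this band. Among the 15, the spans of Folr1 and Tnrc18 overlap a member, so reads may be shared. From 25 to 100 kb, 26 of 114 (22.8%) were higher, and from 100 to 500 kb, 73 of 505 (14.5%). Without the neighbours whose spans overlap a member the count within 100 kb was 38. It is given without a share, because overlapping neighbours that were not called, such as Zfp830 and Slc9a5, were left out too. When each of the 3 changes had to be at least 2-fold, the count within 100 kb was 13 of 148 (8.78%), against 3.17% of tested genes outside the set. Under 25 kb this count was 7 of 34 (20.6%), and from 100 to 500 kb 13 of 505 (2.57%). These counts are set beside the background without a test of the difference.

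**Figure D4:**
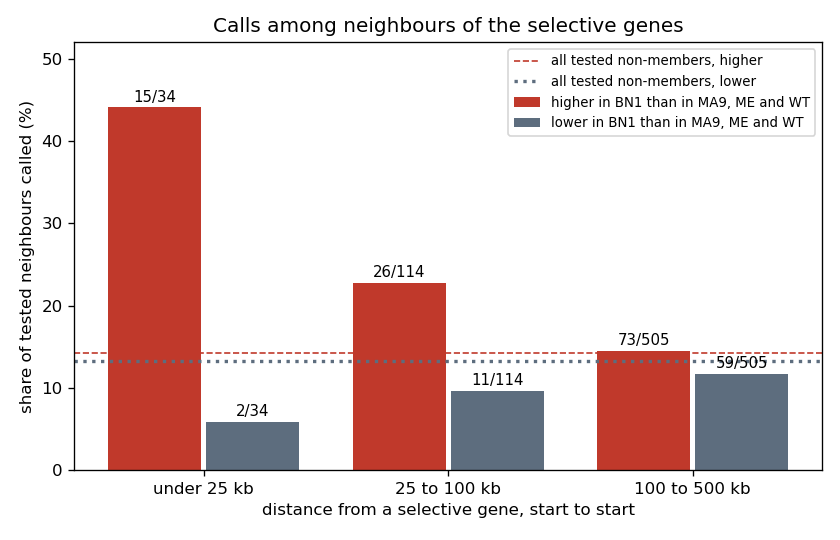
Share of tested neighbours (percent, y axis) called higher (red) or lower (blue-grey) in BN1 than in each of MA9, ME and WT, by distance from the nearest selective gene (x axis). The numbers above bars are called over tested, and lines mark the share among all tested genes outside the set (14.2% higher, 13.3% lower). The red bar is 44.1% under 25 kb and 14.5% from 100 to 500 kb.

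The neighbours named here were chosen after their values were seen. Asphd1, whose start lies 913 bases from that of Sez6l2, had 2.99 CPM in BN1, 0.25 CPM in MA9, 0.25 CPM in ME and 0.26 CPM in WT, a change of 3.43 at the smallest of the 3 comparisons (log2). Folr1, a folate receptor that overlaps Gm35597, had 5.65, 0.93, 0.64 and 0.22 CPM in BN1, MA9, ME and WT. Cdkn2c, an inhibitor of cyclin-dependent kinases whose start is 9168 bases from that of 9630013D21Rik, had 234.5 CPM in BN1, 23.5 CPM in MA9, 33.4 CPM in ME and 106 CPM in WT. Smpdl3a, a phosphodiesterase whose start is 9621 bases from that of Fabp7, had 512 CPM in BN1, 254 CPM in MA9, 235 CPM in ME and 195.5 CPM in WT. Ddhd1, a phospholipase near Gm34360, had 95.1, 21.9, 39.7 and 38.5 CPM in the same order. Stfa2, a close copy of Stfa3 that starts 47.0 kb away, had 9.50, 0.95, 0.37 and 1.60 CPM. Stfa1, farther from Stfa3, was lower in BN1 than in MA9 and ME, at 10.4, 18.1, 17.3 and 4.88 CPM. Changes were often small elsewhere, as for Plaa beside Ift74, at 113 CPM in BN1, 85.6 CPM in MA9, 75.1 CPM in ME and 52.2 CPM in WT.

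Members also lay near each other in 5 places. Penk and A830012C17Rik, a non-coding gene on the other strand, start 9215 bases apart, and A830012C17Rik had 4.14, 6.24 and 3.61 CPM in BN1 against at most 0.72 CPM elsewhere. Further pairs were Ankef1 and Gm32659 (182017 bases from start to start), Gm595 and Gpr119 (203337) and Tanc2 and Mrc2 (297367). The spans of Ankef1 and Gm32659 overlap on opposite strands, and the sources used here do not state strand use in counting, so their reads cannot be told apart with certainty. The same limit holds for Plekhg4, whose span overlaps Kctd19 and Slc9a5, for Cct6b with Zfp830, for Ric3 with Tub, for Gm31365 with Tnrc18 and for Gm35597 with Folr1.

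**Figure D5:**
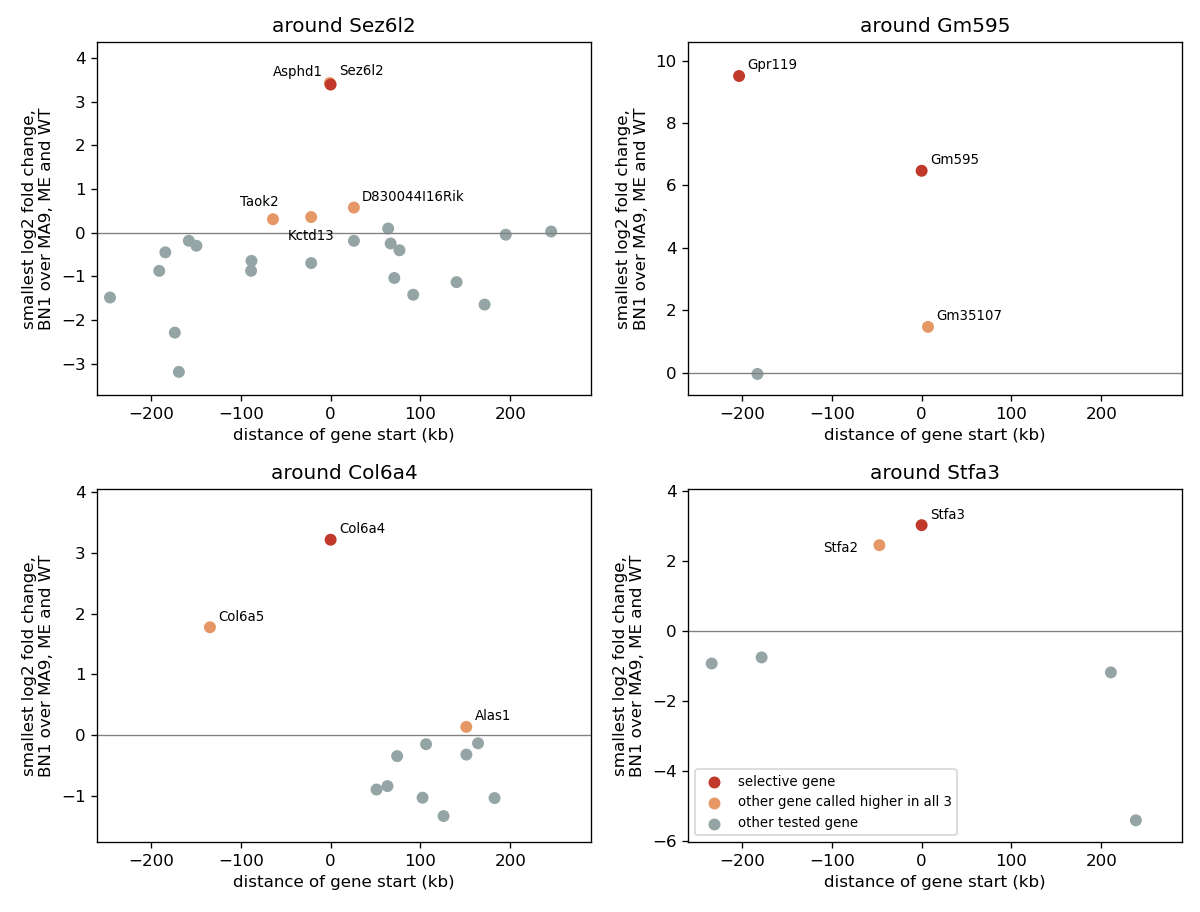
Tested genes around Sez6l2, Gm595, Col6a4 and Stfa3, by distance of the gene start (kb, x axis) and by the smallest of the log2 fold changes of BN1 over MA9, ME and WT (y axis). Red points are selective genes, orange points other genes called higher in all 3 comparisons and grey points the other tested genes. Asphd1 sits beside Sez6l2 at 3.43, Col6a5 lies near Col6a4 at 1.78 and Stfa2 near Stfa3 at 2.45. Stfa1, also near Stfa3, is at -0.75.

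Relatives of the members were then examined by family, leaving out the members themselves, and 17 of 59 tested family genes (28.8%) were called in 1 direction against each of MA9, ME and WT, against 27.5% of tested genes outside the set, so the families as a whole lay near the background. Over all 15334 tested genes, 67.7% were called between BN1 and MA9 (32.8% higher and 34.9% lower in BN1), 64.7% between BN1 and ME (31.8% and 33%) and 79.2% between BN1 and WT (38.4% and 40.8%). Of the 5 other SLITRK genes none passed the filter on low counts. Among 8 tested partners of collagen VI, 2 were higher and 5 lower in BN1 than in MA9, 3 higher and 2 lower than in ME, and 2 higher and 3 lower than in WT. Those higher in all 3 comparisons were Col6a5 (8.04 CPM in BN1, 2.43 in MA9, 1.60 in ME and 0 in WT) and Col6a6 (11.4 CPM in BN1, 6.60 in MA9, 0.97 in ME and 0.017 in WT). Antxr2, a collagen VI receptor, was lower in all 3 comparisons. Col6a3, named after its values were seen, differed from MA9 and ME in the other direction, at 0.060 CPM in BN1, 88.5 CPM in MA9, 6.70 CPM in ME and 0.069 CPM in WT, and Col6a1 and Col6a2 were too low to test.

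Of 21 other lipid-sensing receptors, 8 were higher and 7 lower in BN1 than in MA9 (medians -0.13 in the list and -0.01 over all genes), 8 higher and 5 lower than in ME (0.39 and -0.01), and 3 higher and 16 lower than in WT (-0.88 and -0.01). S1pr3, a sphingosine phosphate receptor, was higher in BN1 than in every other group, at 17.9 CPM in BN1, 11.9 CPM in MA9, 10.04 CPM in ME and 4.03 CPM in WT. Ptger2, a prostaglandin receptor, was also higher in all 3, and S1pr4 and Lpar1 were lower in all 3. Of 15 tested planar cell polarity genes other than Prickle2, 4, 3 and 5 were higher and 5, 5 and 8 lower in BN1 than in MA9, ME and WT. Vangl2 was lower in BN1 in all 3 comparisons, at 1 count over the BN1 libraries, 158 in MA9, 39 in ME and 687 in WT. Ptk7 and Prickle3 were also lower in all 3, and Daam1 and Dvl2 higher in all 3. Of 5 tested leucine-rich and synaptic adhesion genes, 2, 2 and 1 were higher and 1, 2 and 3 lower in the same comparisons, and Lrrc4c was higher in all of them on 56 counts in BN1, 18 in MA9, 5 in ME and 2 in WT. Nlgn2, a neuroligin, was lower in all of them. The calls of Dvl2, Prickle3, Ptger2, S1pr4, Lpar1 and Lrrc4c were each lost in at least 1 alternative.

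Germ-line genes and DMRT factors were examined beside Brdt and Gm595, which are genes of male germ cells. Neither list holds a member of the set, and both were chosen with earlier results of these data known. Of 8 tested germ-line genes, 3, 3 and 4 were higher and 3, 1 and 4 lower in BN1 than in MA9, ME and WT. Stag3, a cohesin subunit of meiosis, was higher in all 3 comparisons, at 30.9 CPM in BN1, 25.5 CPM in MA9, 0.71 CPM in ME and 11.1 CPM in WT, and Piwil2 was lower in all 3. Ddx4, the germ cell helicase, named after its values were seen, was lower than in MA9, at 0.49 CPM in BN1 and 8.32 CPM in MA9. Dmrtb1, a factor of male germ cells, was the tested DMRT gene that was called, at 361 ± 8.99 CPM in BN1, 3.32 CPM in MA9, 173 CPM in ME and 0.085 CPM in WT. It failed the 8-fold limit against ME alone, where the log2 fold change was 1.05 ± 0.05 (edgeR adjusted p = 1.2e-17).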

How the data were processed

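The input was the authors' deposited table of raw read counts, with 35976 gene symbols in 12 libraries. The submitters' processing notes name HISAT2, featureCounts, DESeq2 and the build mm10. The sources used here do not give versions, the annotation or strand use in counting. Per the labels' protocols, RNA came from RNeasy columns and libraries from a stranded TruSeq mRNA kit.

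CPM is the count divided by the library total, without further scaling. No column of the table was left out. The members, gene lists and tests were chosen with earlier results of these data known. The BN1 contrasts of the members chose them, so no test is given for those. Tests used edgeR 4.0.16 in R 4.3.3 with filterByExpr (15334 genes kept), TMM factors of 0.928 to 1.051 and 1 robust quasi-likelihood model over all 12 libraries (biological coefficient of variation 5.87%), with Benjamini-Hochberg adjustment over all tested genes. Approximate SEs are the log2 fold change divided by the square root of F. The edgeR step was tried on simulated data. Only genes above a minimum expected count were changed there, so calls on few counts were not covered. Alternatives were DESeq2 1.42.0, RLE and upper-quartile scaling, no filter, a replicate block, a 2-fold minimum, other limits, a 500 kb window and each library left out. Leaving out neighbours that overlap a member and the split by distance were added after seeing the data. Positions, exon lengths (48 members) and promoters came from RefSeq or GENCODE vM21 annotation of GRCm38, with pandas 2.3.3, numpy 2.4.6 and matplotlib 3.10.9 in Python 3.11.15.

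Members were named by rule. These were the 14 with the highest BN1 level, the 8 with the largest ratio to the highest other group, the 4 on each side of each limit, up to 6 called per direction and comparison, members within 100 kb of another and members of family lists, with up to 4 called genes per direction of each list. Other members are given by role. Of the 56 members, 54 are named or plotted, and the others enter the counts and sums but are not reported here.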

Additional observations from a re-analysis of the deposited data

Results flagged for a closer look

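Tmem178 was called in opposite directions against WT in the MLL fusion leukemias, higher in MA9 (2.50 ± 0.18, log2 fold change with approximate SE) and lower in ME (-1.18 ± 0.33), and the difference between them, tested as MA9 against ME, was 3.68 ± 0.21 (edgeR adjusted p = 1.8e-14). All 3 MA9 libraries stood above all 3 ME libraries. Tmem178 had 246 counts in MA9, 18 in ME and 38 in WT. Its mean was 0.30 CPM in ME and 0.63 CPM in WT, so the lower call in ME compares 2 low levels.

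Fam167b was lower in MA9 than in WT and higher in ME than in WT (2.24 ± 0.63), with a fitted difference of MA9 against ME of -6.25 ± 1.07 (edgeR adjusted p = 3e-05). It had no count in MA9, 27 in ME and 5 in WT, so the fitted value is not a bound. The bound was at least 9.07-fold lower in MA9 than in ME and at least 1.68-fold lower in MA9 than in WT. The gene passed the filter on low counts through BN1, and its opposite directions rest on these few counts.

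Gm34360, named after its values were seen, was lower in MA9 and higher in ME (2.78 ± 0.65) than in WT, with a fitted difference of -6.49 ± 1.04 (edgeR adjusted p = 1.2e-05). It had no count in MA9, 32 in ME and 4 in WT, at least 10.8-fold lower in MA9 than in ME. It too passed the filter on low counts through BN1. Its direction in MA9 against WT rests on none against 4 counts, and this call was lost without MA9 replicate 1, 2 or 3 or WT replicate 1.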

How the results depend on the processing

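The set of 56 genes became 109 at a 4-fold limit, 28 at a 16-fold limit and 34 at a 10 CPM limit, and ran from 53 to 57 when 1 library was left out. The other changes of its rule gave 42 to 77 genes. Leaving out 1 library gave 19 to 23 calls for MA9 against ME, 25 to 30 for MA9 against WT, 20 to 25 for ME against WT, 37 to 42 higher neighbours and 14 to 17 family genes. The main fit called 40.6%, 80.1% and 79.2% of all tested genes in MA9 against ME, MA9 against WT and ME against WT. No background share was computed with a library left out, so these ranges show only how far the counts moved. At a 2-fold minimum, higher neighbours numbered 13 of 148 (8.78%), against 3.17% of tested genes outside the set. In a 500 kb window they numbered 114 of 653 (17.5%), against 14.2% of tested genes outside the set. Family genes numbered 7 of 59 at a 2-fold minimum, a count given without a background share. No called gene changed direction in an alternative that gave a value. Upper-quartile scaling shifted the median gene by at most 0.074 (log2). With the replicate block, 23, 29 and 23 members were called in MA9 against ME, MA9 against WT and ME against WT, also without a background share for that fit. Correlations of same-numbered libraries ran from -0.278 to 0.294, so the numbers were not taken to pair samples. Outside BN1, 5 or fewer counts over the 9 libraries were seen for 6 of the 56 genes, which limits what those comparisons can detect.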
